A study of Mus musculus with 6 samples.

Results

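The genes described here code for the presynaptic machinery that docks, primes and fuses synaptic vesicles. They were taken by symbol from the deposited count table as every synaptotagmin (17 genes), syntaxin (15), VAMP (7), SNAP (5), Stxbp (5), complexin (4), Rims (4), Unc13 (4), Rab3 (4), synapsin (3) and Sv2 (3) found there, 71 of 26049 genes in all. Single-nucleus RNA was sequenced from dissected hippocampi of male PS19 mice, all of which carry the Tau P301S transgene, a mutant human tau used to model tau pathology. Each mouse was either sham operated or given a mild traumatic brain injury (TBI), a controlled cortical impact over the right hemisphere, and received an adeno-associated virus coding for GFP as control (AAV-GFP) or for the lymphatic growth factor VEGF-C (AAV-VEGFC). The 6 libraries held, 1 each and in the order used for values given by library, the right hippocampus of sham mice with AAV-GFP, the same with AAV-VEGFC, the right and then the left hippocampus of TBI mice with AAV-GFP, and both sides, again right first, of TBI mice with AAV-VEGFC. No wild-type group and no left sham library entered the comparisons, so each result holds within PS19 mice, and the side of the hippocampus and the distance from the impact cannot be told apart.

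A synaptic vesicle fuses when VAMP on the vesicle and syntaxin and SNAP-25 on the plasma membrane zip into a SNARE complex, which Munc13 proteins (the Unc13 genes) help to assemble. Calcium that enters at the active zone binds synaptotagmins, complexins clamp and promote fusion, and RIM proteins (the Rims genes) and Rab3 tether vesicles near the calcium channels. Synapsins hold vesicles in reserve and Sv2 proteins are membrane glycoproteins of the vesicle. Relatives of the same families, such as Stx7, Vamp8, Snap23 and Stxbp3, serve endosomal, lysosomal and constitutive fusion in cells of every kind.

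There were 28650 deposited nuclei, between 3676 and 6002 in a library, and 15358208 to 18379148 unique molecular identifiers (UMIs) per library. The authors' annotation gave 12428 excitatory neurons, 4382 inhibitory neurons, 782 mixed neurons, 5692 astrocytes, 2261 oligodendrocytes, 993 oligodendrocyte precursor cells (OPCs), 406 microglia, 1294 choroid plexus epithelial cells and 412 fibroblasts. Their UMI totals per library ranged from 45757 (fibroblasts) to 10758968 (excitatory neurons), so levels in fibroblasts and microglia were the least precise. Levels are given as counts per 1000000 UMIs (CPM) of a class in a library, and a range is the lowest to the highest of the 6 libraries. In this 3' data, CPM was compared for 1 gene between classes, not between genes. From the authors' clusters, 4 neuron subsets were formed and named from markers. These were 2784 CA1-like nuclei (excitatory cluster 1), 4609 dentate granule-like nuclei (excitatory clusters 2 and 3), 1065 CA3-like nuclei (excitatory cluster 4) and 2606 nuclei of an interneuron subset (inhibitory clusters 1, 3, 6 and 8). The CA1 marker list summed to 398 to 447 CPM in the CA1-like nuclei against 12.3 to 22.5 CPM in the dentate granule-like nuclei. The CA3 list summed to 2181 to 2465 CPM in the CA3-like nuclei against 85.0 to 116 CPM in the CA1-like nuclei. The dentate list summed to 645 to 736 CPM in the dentate granule-like nuclei against 42.3 to 63.7 CPM in the CA1-like nuclei. The interneuron list summed to 3484 to 4561 CPM in the interneuron subset and 1234 to 1400 CPM in the dentate granule-like nuclei. The latter also had 430 to 515 CPM of the CA3 list. In the interneuron subset the CA1 list stood at 126 to 183 CPM and the dentate list at 160 to 207 CPM. Some 91 barcodes occurred in 2 libraries each. Where nothing says how many mice gave a library, p-values measure only the spread between these libraries.

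Of the 71 genes, 64 reached a mean of 10 CPM in at least 1 class or subset. The other 7 were under 10 CPM throughout, namely the complexins Cplx3 and Cplx4, Rab3d, Stx11, Syt8, Syt15 and Unc13d. The highest of the 9 classes was a neuron class for 33 members and a non-neuronal class for 38. Among the 33, excitatory neurons held the highest mean for 13, mixed neurons for 11 and inhibitory neurons for 9. Among the 38, choroid plexus epithelium led for 12, microglia for 11, fibroblasts for 8, oligodendrocytes for 6 and astrocytes for 1, and in 9 of the 38 (23.7%) the leading class did not overlap the second class in any library. A non-neuronal class led for 53.5% of the members, beside 74.5% of the 26039 genes with a UMI, of which 19.5% were without overlap. With a class mean of at least 10 CPM required, the shares were 51.6% of 64 members and 81.2% of 15361 genes. By family, all 4 Rims genes and 11 of the 17 synaptotagmins peaked in a neuron class, while all 7 VAMPs and 12 of the 15 syntaxins peaked outside neurons. The syntaxin count lay near the share over all genes, and the VAMPs are few, so neither count sets its family apart from other genes.

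**Figure D1:**
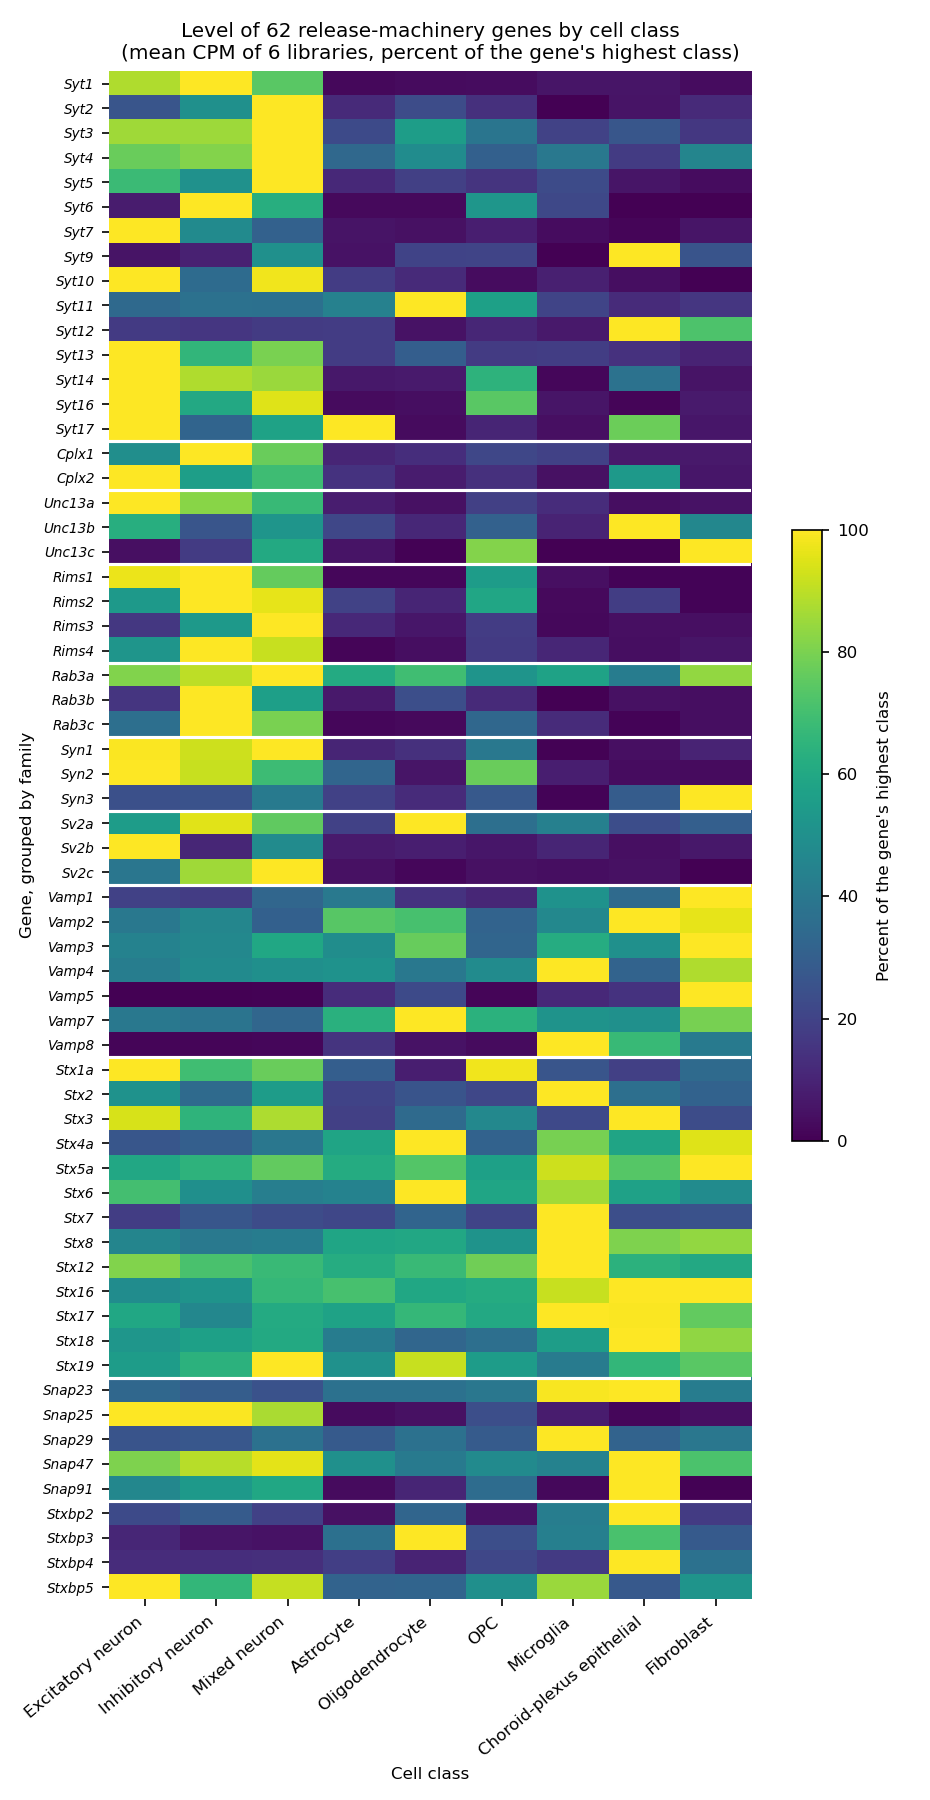
Each row is 1 of 62 of the 64 genes that reached 10 CPM in a class or subset, each column 1 of the 9 classes, and the colour gives the mean CPM of 6 libraries as a percent of the gene's highest class (0 to 100). Synaptotagmins 1 and 7, the Rims genes, synapsins 1 and 2 and Snap25 are bright in the neuron columns, while several syntaxins, VAMPs and Stxbp genes peak in microglia, choroid plexus epithelium, oligodendrocytes or fibroblasts.

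Contrasts between classes or clusters are described without a test, because the authors formed both from the same counts. A member was called higher or lower when its mean CPM differed by a factor of at least 2 and no library of one group overlapped any of the other, among genes with a mean of at least 10 CPM over both groups. Between inhibitory and excitatory neurons, 58 members passed that filter, 6 were higher and 5 lower in inhibitory neurons, beside 6.72% of all genes higher and 5.29% lower. In dentate granule-like against CA1-like nuclei, 52 passed, 7 were higher and 6 lower, beside 7.4% and 6.15% of all genes. In CA3-like against CA1-like nuclei, 51 passed, with 3 higher and 3 lower beside 4.73% and 4.85%. In the interneuron subset against CA1-like nuclei, 56 passed, with 10 higher and 5 lower beside 11.8% and 7.45%. The median log2 ratios of the members in these 4 contrasts were 0.02, 0.08, 0.03 and 0.17, against 0.10, 0.08, -0.03 and 0.18 over all genes. Called in either direction were 19%, 25%, 11.8% and 26.8% of the members that passed, beside 12%, 13.5%, 9.58% and 19.2% of all genes, and the difference was not tested. In all, 26 members were called in at least 1 of the 4 contrasts, a count that was not made for all genes.

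Among the calcium sensors, paralogues differed in opposite directions. Syt1, the fast sensor of synchronous release, was abundant in every neuron subset, at 2323 to 2450.3 CPM (median 2342) in CA1-like, 2966 to 3209.9 CPM (median 3047) in CA3-like, 2023 to 2154 CPM (median 2094) in dentate granule-like and 2882 to 3229.9 CPM (median 2999.6) in interneuron nuclei. The dentate libraries were the lowest and did not overlap the CA1-like ones, though the ratio of 0.886 stayed under the factor of 2. Syt7, a slower high-affinity sensor tied to facilitation and asynchronous release, ran the other way, with 343 to 412 CPM (median 367) in dentate granule-like nuclei, 183 to 221 CPM (median 205) in CA3-like, 127 to 164 CPM (median 149) in CA1-like and 42.8 to 58.9 CPM (median 50.5) in interneurons. No library of any of these subsets overlapped the next in that order, and the dentate mean was 2.49 times the CA1-like mean while that of interneurons was 0.336 of it. Syt10, a synaptotagmin known from regulated secretion, showed the sharpest dentate step of the family, with 56.3 to 66.8 CPM (median 62.8) in granule-like against 5.08 to 9.21 CPM (median 6.0) in CA1-like nuclei, a ratio of 9.26. Syt13, which lacks the residues for calcium binding, was also higher in the dentate subset (79.8 against 36.2 CPM). Syt12, another calcium-independent member, was lower there (4.67 against 16.2 CPM), as was Syt4 (30.6 against 62.0 CPM).

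Syt6 was higher in the interneuron subset than in CA1-like nuclei, with 322 UMIs (of 695 in all inhibitory neurons) against 8, a pooled ratio of 49.5 (95% exact counting interval 24.8 to 116, which covers counting error only). Over all inhibitory neurons it reached 23.9 to 60.9 CPM (median 30.0) against 1.14 to 4.09 CPM (median 2.58) in excitatory neurons. Its level differed among inhibitory clusters too, from a mean of 123 CPM in cluster 5, which lies outside the interneuron subset, and 83.5 CPM in cluster 3, within it, to 0 in clusters 6 and 8, also within it. Syt2, the fast sensor of many parvalbumin-type synapses, was sparse, at 4.28 to 14.5 CPM (median 11.9) in interneurons and 1.26 to 3.15 CPM (median 1.37) in CA1-like nuclei, and was highest in excitatory cluster 6 at a mean of 34.0 CPM. Syt9, another fast sensor, stayed low in the 4 subsets, with means from 0.719 CPM in the dentate to 9.51 CPM in interneurons, and reached 57.6 CPM in excitatory cluster 7. Syt17, which is lower in inhibitory than in excitatory neurons by a ratio of 0.322, peaked in excitatory cluster 8 at 138 CPM. Syt16, without calcium-binding residues, was higher in CA1-like nuclei, with a ratio of 0.318 in CA3-like and 0.467 in interneuron nuclei.

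Complexins differed in the subsets where they were high. Cplx1 reached 43.4 to 58.1 CPM (median 48.4) in the interneuron subset and 24.0 to 33.6 CPM (median 29) in CA3-like nuclei, against 9.85 to 15.7 CPM (median 12.2) in CA1-like nuclei. Neither of the first groups overlapped the CA1-like libraries, and the ratios were 3.95 and 2.37. Cplx2 was instead highest in dentate granule-like nuclei, with 106 to 137 CPM (median 119) against 27.2 to 37.0 CPM (median 32.9) in CA1-like nuclei, a ratio of 3.68. The retinal-type complexin Cplx3 had no UMI in CA1-like, CA3-like or dentate granule-like nuclei, and averaged 22.3 CPM in inhibitory cluster 8.

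Active-zone and priming genes followed different lines. Rims1, a scaffold that recruits calcium channels, was highest in CA3-like nuclei at 1423 to 1562 CPM (median 1526), followed by 1203 to 1298 CPM (median 1234) in interneurons, 1102 to 1196 CPM (median 1150.5) in dentate granule-like and 581 to 645 CPM (median 602) in CA1-like nuclei. The CA1-like libraries lay below all others, and the CA3-like mean was 2.50 times theirs. By cluster it ran up to 2971 CPM in inhibitory cluster 8. Rims2 was 1024 to 1104 CPM (median 1049.7) in interneurons and 458 to 489.7 CPM (median 473) in CA1-like nuclei, with no overlap and a ratio of 2.24. The short gamma isoforms had their own genes, Rims3 and Rims4. Rims3 gave 345 UMIs in the interneuron subset and 3 in CA1-like nuclei, a pooled ratio of 141 with a 95% exact counting interval of 48.0 to 689. Rims4 averaged 33.6 against 14.7 CPM in the same subsets.

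Unc13a, the main priming factor of glutamatergic synapses, varied little among the subsets, from a mean of 87.0 CPM in interneurons to 130.4 CPM in dentate granule-like nuclei. Unc13b, its paralogue with different short-term plasticity, was 128 to 153 CPM (median 139) in CA1-like nuclei and 56.3 to 69.6 CPM (median 63.4) in dentate granule-like nuclei. Those groups did not overlap, and the interneuron mean of 66.9 CPM was likewise below the CA1-like mean of 140.0 CPM (ratio 0.478). Its highest neuronal cluster was excitatory cluster 12 at 533 CPM. Unc13c, best known from cerebellar granule cells, was at 2.96 CPM in CA1-like nuclei and 22.3 CPM in interneurons, yet reached 602 CPM in inhibitory cluster 5. Over all inhibitory neurons it spread widely between libraries, from 23.8 to 162 CPM. Inhibitory cluster 5 made up 0.0544% to 3.74% of the nuclei of a library, and the part of that share in the spread was not tested.

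The Rab3 GTPases differed between their paralogues. Rab3a, the main synaptic isoform, was even, with means of 22.0 to 29.7 CPM over the 4 subsets. Rab3b reached 63.8 to 98.2 CPM (median 78.3) in interneurons against 0.767 to 4.80 CPM (median 1.63) in CA1-like nuclei, and its highest cluster was inhibitory cluster 1 at 123 CPM. Rab3c was 433 to 478 CPM (median 457) in interneurons, 219 to 276 CPM (median 229) in CA1-like, 73.8 to 112 CPM (median 89.3) in CA3-like and 35.9 to 41.6 CPM (median 39.4) in dentate granule-like nuclei. All 4 groups were separate, and the dentate mean was 0.164 of the CA1-like mean.

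Among vesicle proteins, Sv2b, which is typical of glutamatergic vesicles, was at 365 to 459 CPM (median 411) in CA3-like and 217 to 285 CPM (median 247) in CA1-like nuclei, but at 4.33 to 8.18 CPM (median 7.36) in dentate granule-like nuclei and 6.73 to 12.5 CPM (median 7.59) in interneurons. The dentate granule-like nuclei, although excitatory, thus lay at the level of interneurons, with a mean 0.0278 of the CA1-like mean. Sv2c was the converse, with 56.0 to 79.7 CPM (median 64.9) in dentate granule-like nuclei, 27.0 to 38.0 CPM (median 28.9) in interneurons and 0.788 to 3.05 CPM (median 2.13) in CA1-like nuclei. By cluster it was highest in inhibitory cluster 8 at 325 CPM. Sv2a, the widespread isoform that binds levetiracetam, was 155 to 199 CPM (median 167) in interneurons against 65.5 to 81.6 CPM (median 70.5) in CA1-like nuclei, and close to the latter in dentate (78.2 CPM) and CA3-like (72.6 CPM) nuclei.

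The synapsins kept a narrower range. Syn1 had means of 95.2 to 124 CPM over the 4 subsets. Syn2 was highest in CA3-like nuclei at 597 to 709 CPM (median 639) against 361 to 437 CPM (median 386) in CA1-like nuclei, without reaching the factor of 2. Syn3 was 138 to 183 CPM (median 165) in dentate granule-like and 18.2 to 33.3 CPM (median 21.5) in CA3-like nuclei, on either side of 61.6 to 98.2 CPM (median 76.8) in CA1-like nuclei. It was the synapsin with the clearest difference between principal cell types, with ratios of 2.11 and 0.309 to CA1-like nuclei.

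**Figure D2:**
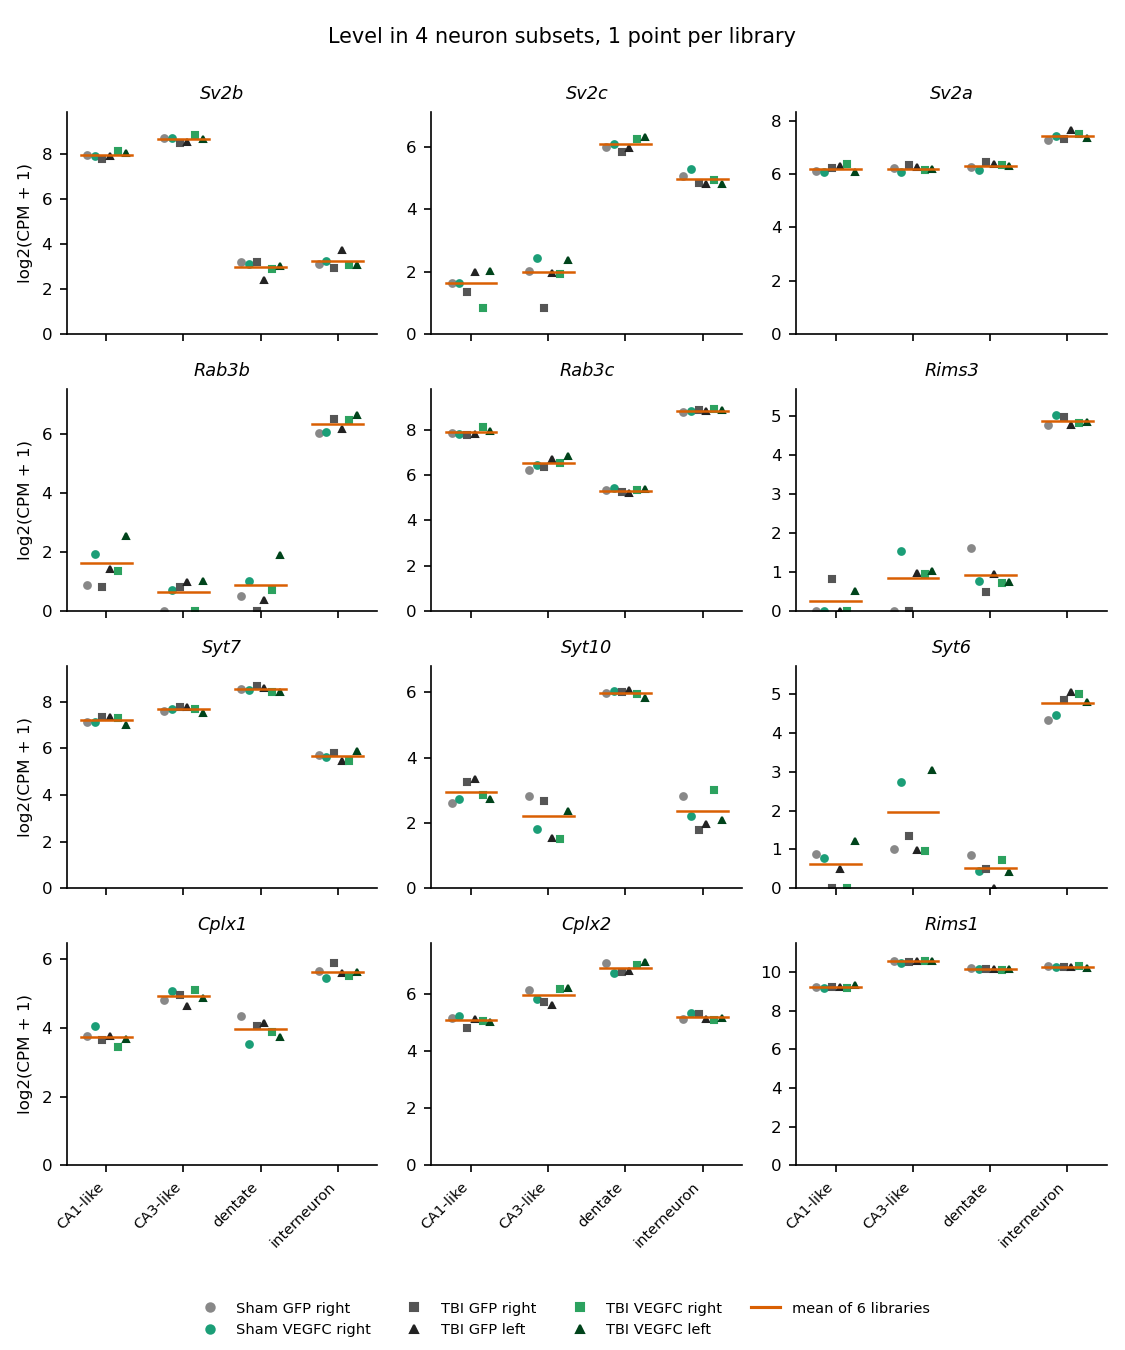
Each panel shows 1 gene, with log2(CPM + 1) on the y axis, the 4 neuron subsets on the x axis, 1 point per library and a bar at the mean of the 6. Sv2b and Sv2c are reversed between CA1-like and dentate granule-like nuclei, Rab3b, Rims3 and Syt6 stand high in interneurons alone among the 4 subsets, and the points of the 6 libraries lie close together wherever the level is high.

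Genes of the SNARE core and its relatives differed by member. Snap25 reached 958 to 1064 CPM (median 1009) in CA3-like nuclei, 596 to 613 CPM (median 601) in dentate granule-like and 425 to 493 CPM (median 463) in CA1-like nuclei, and the CA3-like mean was 2.18 times the CA1-like one. Stx1a was lower in the dentate, at 8.35 to 14.3 CPM (median 11.7) against 20.5 to 28.4 CPM (median 24.7) in CA1-like nuclei, and climbed to 141 CPM in excitatory cluster 10. Vamp2, the vesicle SNARE of most forebrain synapses, ranged from a mean of 28.7 CPM in dentate granule-like nuclei to 43.6 CPM in interneurons. Vamp1, its counterpart in fast-firing and brainstem neurons, ran from 10.4 to 20.1 CPM. Stxbp3, a syntaxin-binding protein of constitutive fusion, was 48.0 to 56.6 CPM (median 52.9) in dentate granule-like against 14.2 to 19.6 CPM (median 15.1) in CA1-like nuclei with no overlap. Stx6, a syntaxin of the trans-Golgi network, was lower in interneurons than in CA1-like nuclei (33.8 against 68.2 CPM, ratio 0.496). Stx4a, Stx18, Stx19, Snap29, Snap47, Syn1, Syn2, Syn3, Rab3a, Vamp1, Syt2, Syt3, Syt6, Sv2c and Unc13a overlap coding genes of the other strand. Vamp3, Syt1, Syn2 and Sv2c overlap coding genes of the same strand. The sources used here do not say whether counting used strand, so reads of such neighbours could not be told apart.

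Other presynaptic genes, 62 in number, differed at a like rate, with 8 higher and 3 lower of 55 that passed the filter in dentate granule-like against CA1-like nuclei. The largest steps were Stxbp6 (689 against 1.89 CPM), a SNARE-binding protein also known as amisyn, Synpr (639 against 6.33 CPM), the vesicle protein synaptoporin, and Rph3a (153 against 1.54 CPM), the Rab3 effector rabphilin. In CA3-like against CA1-like nuclei 4 of 54 were higher and 4 lower, in interneurons 8 of 56 were higher and 5 lower, and in inhibitory against excitatory neurons 2 of 56 were higher and 6 lower. The transporters that define the transmitter were on the sides their names give, with Slc32a1 at 80.9 CPM in inhibitory against 2.58 CPM in excitatory neurons, and Slc17a7 at 248 CPM in excitatory against 11.3 CPM in inhibitory neurons.

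Outside neurons many members were low. Of the 71, 9 members were lower than in excitatory neurons in all 6 non-neuronal classes, namely Syt1, Syt7, Syt10, Syt13, Snap25, Syn1, Sv2b, Sv2c and Unc13a, and 33 members were lower in at least 1 class. The same counts across classes were not made for all genes, whose shares by class follow. In astrocytes 28 of the 53 members that passed the filter were lower and 3 higher, beside 16.9% of all genes lower and 20.3% higher. In oligodendrocytes 27 of 58 were lower and 6 higher, beside 21.2% and 18.5%. In OPCs 19 of 54 were lower and 4 higher, beside 12.8% and 14.7%. In microglia 22 of 54 were lower and 5 higher, beside 18.5% and 20.9%. In choroid plexus epithelium 26 of 57 were lower and 12 higher, beside 16.8% and 27.1%. In fibroblasts 23 of 57 were lower and 8 higher, beside 15.2% and 16.6%. The median log2 ratio of the members lay between -1.35 in astrocytes and -0.48 in choroid plexus epithelium, while that of all genes lay between 0.09 in OPCs and 0.41 in microglia.

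Of those 9 genes, 2 hold in their promoters an arm of RE1, the element bound by the repressor REST, which silences neuronal genes in other cells. RefSeq promoter windows of GRCm38.p6, 250 bases before to 50 after a start site, matched 54 of the 71 members. The left arm, searched as TTCAGCACC on both strands, occurred in 0.371% of all windows, and among the members in those of Syn1 and Unc13a. The right arm, searched as GGACAGCGC, occurred in 0.405% of windows, and among the members in that of Unc13a. The cyclic AMP response element TGACGTCA occurred in 1.79%, and among the members in those of Syn1 and Stxbp3. These 2 stretches are shown because both genes were lower in every non-neuronal class. In each, capitals mark the matches. A match is a description of letters, and binding was not measured here. The Syn1 stretch (chrX:20921049-20921168, minus strand) begins 250 bases before the start site, with the RE1 arm beginning 232 and the cyclic AMP element 159 bases before it. The Unc13a stretch (chr8:71671727-71671752, minus strand) lies just after the start site and holds both arms as reverse complements, the right arm first.
Syn1: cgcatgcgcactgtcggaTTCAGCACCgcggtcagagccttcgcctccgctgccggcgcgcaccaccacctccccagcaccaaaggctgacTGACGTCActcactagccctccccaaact
Unc13a: GCGCTGTCCgcgcccccGGTGCTGAA

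Free RNA and mixed nuclei can carry neuronal transcripts into other classes, so 10 neuron markers were measured beside the members. As a percent of the excitatory level, the median marker of the list stood at 7.70% in astrocytes, 3.55% in oligodendrocytes, 7.72% in OPCs, 6.51% in microglia, 2.45% in choroid plexus epithelium and 4.17% in fibroblasts. The highest marker of each class stood between 25.7% in fibroblasts and 42.2% in oligodendrocytes. Members above the highest marker numbered 33 of 53 in astrocytes, 31 of 58 in oligodendrocytes, 43 of 54 in OPCs, 28 of 54 in microglia, 37 of 57 in choroid plexus epithelium and 36 of 57 in fibroblasts. Syn1 in excitatory neurons was 102 to 112 CPM (median 108), against 8.96 to 14.1 CPM (median 10.5) in astrocytes and 0 to 4.82 CPM (median 0) in microglia. Unc13a ran from 99.3 to 131 CPM in excitatory neurons to 6.47 to 10.3 CPM in astrocytes. Syt1 was at 66.9 ± 11.5 CPM (SD, n = 6) in astrocytes and 2525 ± 80.1 CPM in excitatory neurons, or 0.0265 of the excitatory mean. The astrocyte levels of all 3 genes lay between the lowest and the highest neuron marker of that class (0.913% to 28.7% of the excitatory level), and how much of them came from other nuclei was not tested.

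Precursors of oligodendrocytes kept a part of the active-zone set. Rims1 was 501 to 650.0 CPM (median 624) in OPCs against 13.3 to 23.7 CPM (median 16.8) in astrocytes and 12.1 to 30.7 CPM (median 20.2) in oligodendrocytes, with no overlap between OPCs and either. Against excitatory neurons its ratio was 0.568 in OPCs and 0.0165 in astrocytes. Rims2 in OPCs was at 623 to 703 CPM (median 642), 1.10 times the excitatory mean, and Syn2 at 342 to 415 CPM (median 366), or 0.770 of it. The clathrin adaptor gene Snap91 had 148 to 213 CPM (median 164), Syt14 78.0 to 105 CPM (median 96.7) and Syt16 121 to 179 CPM (median 163). Syt1, at a ratio of 0.0388, and Sv2b, at 0.0608, were by contrast lower in OPCs than in neurons, as in the other glia. Unc13c lay furthest above excitatory neurons, with 358 to 418 CPM (median 379.8) in OPCs and 16.1 to 27.4 CPM (median 18.4) in excitatory neurons, a ratio of 19.1. Syt6 (18.2 CPM) and Syt9 (22.0 CPM) were also higher in OPCs than in excitatory neurons (2.66 and 5.69 CPM).

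Oligodendrocytes were highest in Stxbp3 and Syt11. Stxbp3 was 228 to 319 CPM (median 249.6) in oligodendrocytes and 26.4 to 31.2 CPM (median 28.4) in excitatory neurons, a ratio of 9.24, and the next class, choroid plexus epithelium, lay lower in all libraries at 151 to 207 CPM (median 191). Syt11, a synaptotagmin without calcium binding that acts in endocytosis and autophagy, was 399 to 486 CPM (median 424) in oligodendrocytes against 209 to 269 CPM (median 247) in OPCs and 133 to 165 CPM (median 147) in excitatory neurons. Both genes were thus separate from every other class in every library. Stx4a, the plasma-membrane syntaxin of constitutive and regulated fusion outside synapses, was 36.0 to 67.5 CPM (median 46.7), 3.76 times the excitatory mean, and Vamp7, a lysosomal VAMP, 26.6 to 41.4 CPM (median 31.4), 2.51 times. Sv2a had its highest class mean here (150.5 ± 18.0 CPM, SD, n = 6) beside 144 ± 13.5 CPM in inhibitory neurons, with overlapping libraries. Stx6 too was highest in oligodendrocytes (97.7 CPM), with overlap. Astrocytes had few such genes, with Stxbp3 (97.1 CPM), Stx4a (28.6 CPM) and Vamp1 (35.6 CPM) above excitatory neurons, and Syt17 at 58.7 CPM level with 58.4 CPM there.

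Microglia were the highest class for 11 members, with Stx7 in front. Stx7, a late endosomal syntaxin, was 138 to 423 CPM (median 207) in microglia and 39.9 to 45.9 CPM (median 41.5) in excitatory neurons, a ratio of 5.46, and no library of another class reached the microglial range. Snap23, the ubiquitous relative of Snap25, was 118 to 147 CPM (median 141) in microglia and 112 to 190.0 CPM (median 129) in choroid plexus epithelium, against 42.4 to 49.8 CPM (median 45.3) in excitatory neurons. Vamp8, a VAMP of endosomes and autophagosomes, was 0 to 94.5 CPM (median 56.9) in microglia and below 1 CPM on average in excitatory and inhibitory neurons (0.733 and 0.612 CPM). Stx8 (153 CPM), Stx4a (38.9 CPM) and Stxbp3 (113 CPM) were called higher than in excitatory neurons. Stx2, Stx12, Stx17, Vamp4 and Snap29 also had their highest class mean in microglia, from 34.2 CPM for Snap29 to 125 CPM for Vamp4, with libraries that overlapped the second class. Syt15 (4.57 CPM), Syt8 (1.71 CPM) and Unc13d (5.03 CPM), the priming gene of cytotoxic granules, led there only at levels under 10 CPM.

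In choroid plexus epithelium, the tissue that makes cerebrospinal fluid, 12 of 57 members were above excitatory neurons (21.1%, beside 27.1% of all genes). Stxbp4, which binds syntaxin 4, was 371 to 443 CPM (median 406) against 47.9 to 53.9 CPM (median 51.8) in excitatory neurons, a ratio of 7.87. Syt9 was 92.8 to 127 CPM (median 106) there and 3.55 to 7.71 CPM (median 5.59) in excitatory neurons, a ratio of 19.0. Snap91, a clathrin assembly protein named after synapses, was 412 to 539.6 CPM (median 490.0) against 212 to 234 CPM (median 221) in excitatory neurons. Stxbp4 and Snap91 lay above every neuronal library, and Syt9 above all but 1 of mixed neurons. Unc13b reached 182 to 254 CPM (median 204), above the excitatory range of 122 to 148 CPM but at a ratio of only 1.59. Stxbp2, a syntaxin-binding protein of epithelia and blood cells, was 32.9 to 51.9 CPM (median 37.9), 4.44 times the excitatory mean. Vamp2 was 70.7 to 97.0 CPM (median 88.3) and higher than in excitatory neurons at 31.4 to 38.3 CPM (median 32.9). Syt12 averaged 69.8, Stx16 317, Stx18 152, Stx3 95.3 and Snap47 65.7 CPM, each the highest of the 9 classes with overlap of the second. Vamp8 counted 114 UMIs there and 42 in excitatory neurons, a pooled CPM ratio of 47.7 (95% exact counting interval 33.2 to 69.6). The choroid class had the least neuron marker RNA by its median marker (2.45%), and Rims1 stood at 0.00854 of its excitatory level, the lowest of the 6 non-neuronal ratios of that gene.

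Fibroblasts were few, with 27 to 102 nuclei in a library, and their median doublet score of 0.0724 was the highest of the classes. Fibroblast markers summed to 1928 to 2448 CPM in this class. Markers of other cells were also present, with astrocyte markers at 1418 to 2807 CPM, OPC markers at 314 to 677 CPM and the 10 neuron markers at 922 to 1687 CPM. How much of the levels below came from other cells was not tested. Vamp5, a VAMP of muscle and other non-neuronal membranes, had 89 UMIs in fibroblasts and 20 in the far larger excitatory class, a pooled CPM ratio of 418 (95% exact counting interval 255 to 716). By library it was 109 to 193 CPM (median 148) in fibroblasts, and the second class, oligodendrocytes, stood at 17.9 to 40.3 CPM (median 35.1). Syn3 was 285 to 590.1 CPM (median 434) against 96.8 to 127 CPM (median 101) in excitatory neurons, a ratio of 4.13. The Syn3 gene (chromosome 10, 86055125.0 to 86498896.0 in GRCm38, minus strand) contains Timp3 on the opposite strand, a metalloproteinase inhibitor at 949 CPM in fibroblasts and 49.98 CPM in excitatory neurons, so that the 2 genes' reads could not be told apart. Unc13c was 385 to 579 CPM (median 459) in fibroblasts, 23.5 times the excitatory mean, with libraries that overlapped those of OPCs (mean 382 CPM). Vamp1 was 21.9 to 171 CPM (median 78.3), with an overlap of its locus by Tapbpl and Cd27. Vamp3 (35.3 CPM), Stx5a (138 CPM), Stx11 (6.96 CPM) and Cplx4 (1.69 CPM) had their highest class mean here with overlap, the last of these from 13 UMIs over all classes.

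**Figure D3:**
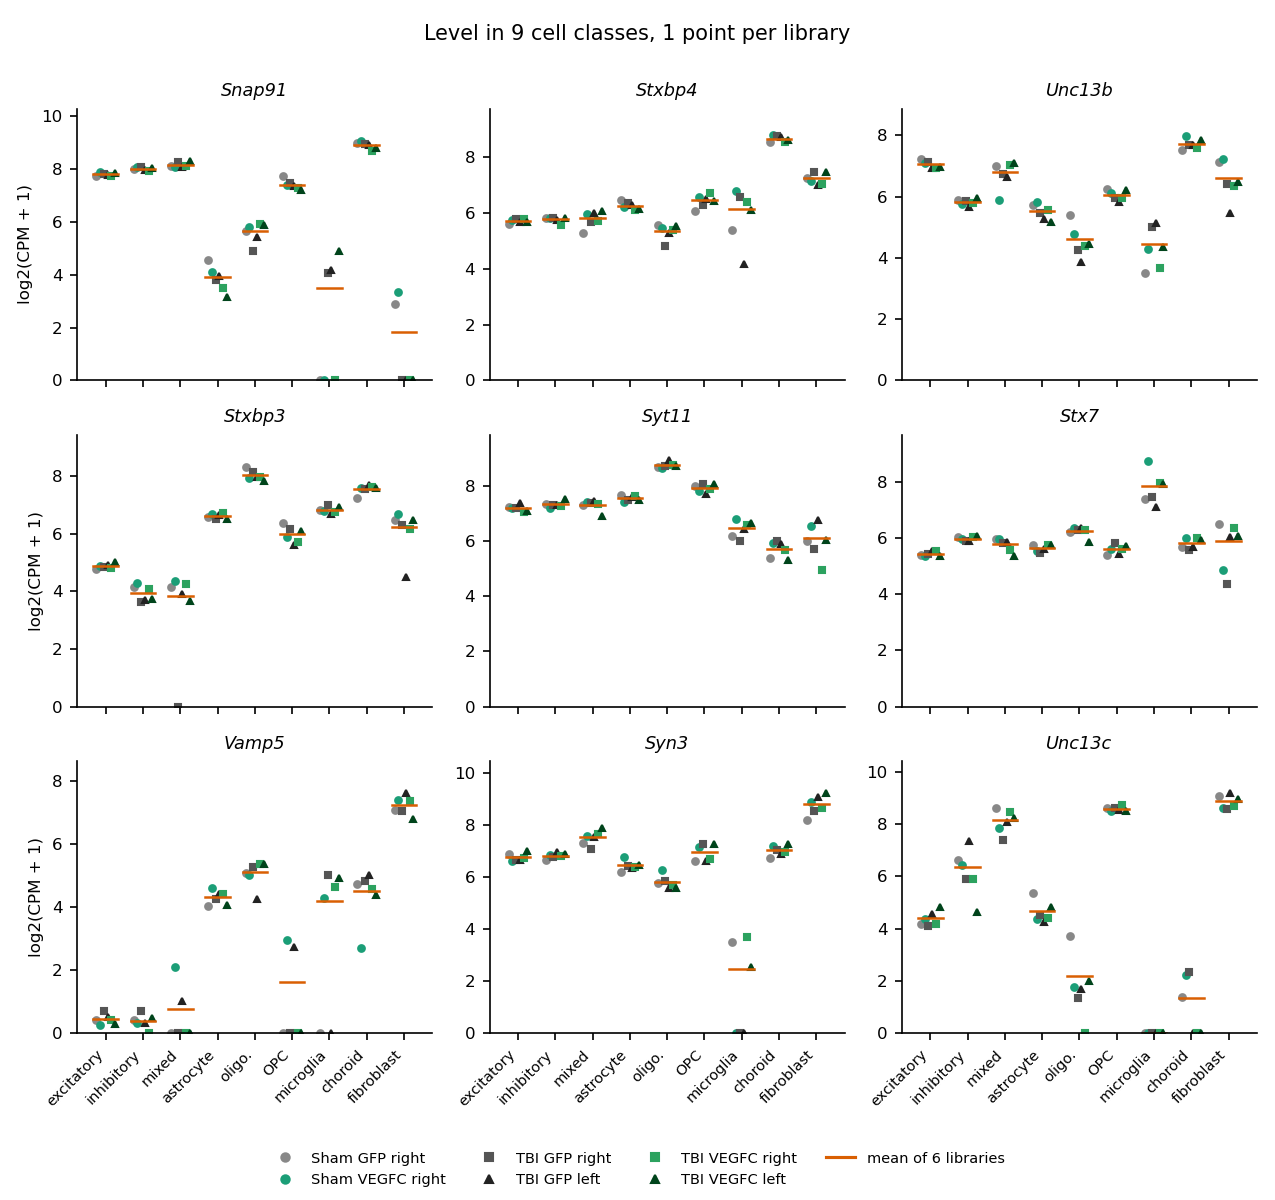
Each panel shows 1 gene, with log2(CPM + 1) on the y axis, the 9 classes on the x axis, 1 point per library and a bar at the mean of the 6. Snap91, Stxbp4 and Unc13b are highest in choroid plexus epithelium, Stxbp3 and Syt11 in oligodendrocytes, Stx7 in microglia, and Vamp5 and Syn3 in fibroblasts, while Unc13c is high in OPCs, fibroblasts and mixed neurons, and points at 0 in microglia and fibroblasts come from few UMIs.

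Over the 6 classes, 20 members were higher than in excitatory neurons in at least 1, and Stx4a and Stxbp3 were higher in 5. By class, 5.66% to 21.1% of the members that passed the filter were higher, beside 14.7% to 27.1% of all genes. Counting means alone, 122 pairs of a member and a non-neuronal class were at or above the excitatory level. By class these ran from 16 of 54 members in OPCs to 24 of 57 in choroid plexus epithelium and in fibroblasts. Over all genes the median log2 ratio was 0.09 to 0.41 by class, and counts across classes were not made for them. Of the other presynaptic genes that passed the filter, 25 to 34 were lower than in excitatory neurons in each non-neuronal class and 2 to 8 were higher. Among the higher ones were the endocytic genes Dnm3 (1305 CPM in oligodendrocytes, 133 in excitatory neurons), Bin1 (602 against 76.9 CPM) and Picalm (783 CPM in microglia against 87.4 CPM).

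The groups of mice were then compared within each of the 9 classes and 4 subsets, by the quasi-likelihood test of edgeR with Benjamini-Hochberg adjustment over all genes tested in that class or subset and comparison. The first question was whether AAV-VEGFC changed the release genes, over sham right, TBI right and TBI left. None of 598 pairs of a member and a class or subset passed an adjusted p of 0.05, beside 0.0268% of all genes. With edgeR 31 pairs had an unadjusted p under 0.05, which is 5.18% of the member pairs against 5.67% of all genes. DESeq2 and limma-voom also called 0, with 1 and 31 pairs at an unadjusted p under 0.05. Subsets hold nuclei that are also in the classes, so these pairs are not independent.

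The members nearest to the threshold were Unc13c in interneurons and Stx7 in microglia. Unc13c in the interneuron subset had 30.8, 18.5, 34.1, 19.3, 15.0 and 16.4 CPM in the 6 libraries, a log2 change with VEGFC of -0.72 (SE 0.20, adjusted p 0.214). The VEGFC library was the lower in all 3 pairs. Stx7 in microglia had 164, 423, 173, 138, 248 and 241 CPM, a log2 change of 0.96 (SE 0.29, adjusted p 0.28). It rested on 8 to 50 UMIs per library, and the VEGFC library was the higher in each pair. Sv2c in dentate granule-like nuclei was at 63.0, 66.7, 56.0, 61.3, 75.2 and 79.7 CPM, a log2 change of 0.32 (adjusted p 0.43), and in all excitatory neurons its log2 change was 0.42 (adjusted p 0.739). With either sham library left out, both Sv2c results passed the threshold. The other sham library is then fitted exactly by its own context term, so both fits rest on the same TBI libraries and are not separate support. Of 16 alternatives, the dentate result passed under 2 and the excitatory result under 3. The log2 change ran from 0.16 to 0.43 in the dentate subset and from 0.07 to 0.72 in excitatory neurons. On the lower side stood Vamp8 in choroid plexus (log2 -0.84), Stx1a in excitatory neurons (-0.33) and Syt7 in inhibitory neurons (-0.30), and on the higher side Snap91 in oligodendrocytes (0.58), none past the threshold.

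The second question was the effect of the impact on the right side, TBI right against sham right. Again none of 598 pairs passed, beside 0.082% of all genes, with 14 pairs (2.34%, against 5.28% of all genes) at an unadjusted p under 0.05 by edgeR, 1 by DESeq2 and 15 by limma-voom, neither of which called a member. Rab3b in the interneuron subset was nearest, at 63.8, 65.1, 89.8, 69.9, 86.7 and 98.2 CPM, a log2 change of 0.49 (SE 0.14, adjusted p 0.381). Both right TBI libraries lay above both sham libraries, and so did the left ones. Over all inhibitory neurons the change of Rab3b was 0.62 (adjusted p 0.995). It passed the threshold under 2 of 16 alternatives, without TBI GFP left and without TBI VEGFC left. The remaining left library is then fitted exactly by its own context term. Both fits thus compare the same right libraries and are not separate support. The log2 change ran from 0.38 to 0.85 over the alternatives. The interneuron markers summed to 3484, 3739, 3902, 4149.6, 4477 and 4561 CPM in the interneuron subset, also higher in every TBI library, and their part in the Rab3b values was not tested. Syt17 in CA3-like nuclei (-0.70), Snap91 (-0.71) and Syt4 (-0.59) in astrocytes and Syt9 in excitatory neurons (-0.64) were the nearest on the lower side, with Stx12 in choroid plexus (0.79) and Syt6 in interneurons (0.56) on the higher side. None of these passed the threshold. The 10 neuron markers in astrocytes summed to 479, 434, 371, 407, 391 and 430.2 CPM, lower in the right TBI libraries than in sham as Snap91 and Syt4 were, and their part was not tested.

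Left against right hippocampus after TBI gave 1 call among 598 pairs, beside 0.023% of all genes, and it was in microglia, where 0.764% of all genes were called. With edgeR 16 pairs had an unadjusted p under 0.05, and limma-voom called the same pair while DESeq2 called none. Syt1 in microglia (chromosome 10, 108497650.0 to 109010982.0 in GRCm38, minus strand) had 174, 0, 62.8, 395, 47.3 and 269.8 CPM in the 6 libraries, a log2 change of 2.67 (SE 0.50, adjusted p 0.000702). The left libraries of both vectors lay above the right ones, from 104 UMIs in all, of which 35.6% came from 1 nucleus. The 10 neuron markers moved with it, with a sum of 174, 313, 299, 1650.2, 259.9 and 790.2 CPM in microglia. Once the 25% of non-neuronal nuclei with the most neuronal RNA were removed, Syt1 stood at 166, 0, 39.9, 51.0, 55.8 and 92.1 CPM from 33 UMIs, the marker sum at 96.8, 283, 220, 178, 223 and 290 CPM, and the gene no longer passed the filter on counts. Without the libraries TBI GFP right, TBI VEGFC right or TBI VEGFC left in turn, its adjusted p was 0.706, 0.616 and 0.234, and over all 12 alternatives that could be fitted it ran from 2.87e-06 to 1.00. The nearest other result was Syt1 in OPCs (log2 1.12, adjusted p 0.163). It passed under 1 of 15 alternatives, without sham VEGFC, but not without sham GFP, which leaves the same TBI libraries. Next were Unc13c in excitatory neurons (0.57) and Syt9 in mixed neurons (1.12). On the lower side were Stxbp5 in microglia (-0.84), Stx6 in mixed neurons (-0.69), Unc13c in interneurons (-0.46) and Stxbp4 in CA1-like nuclei (-0.31).

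**Figure D4:**
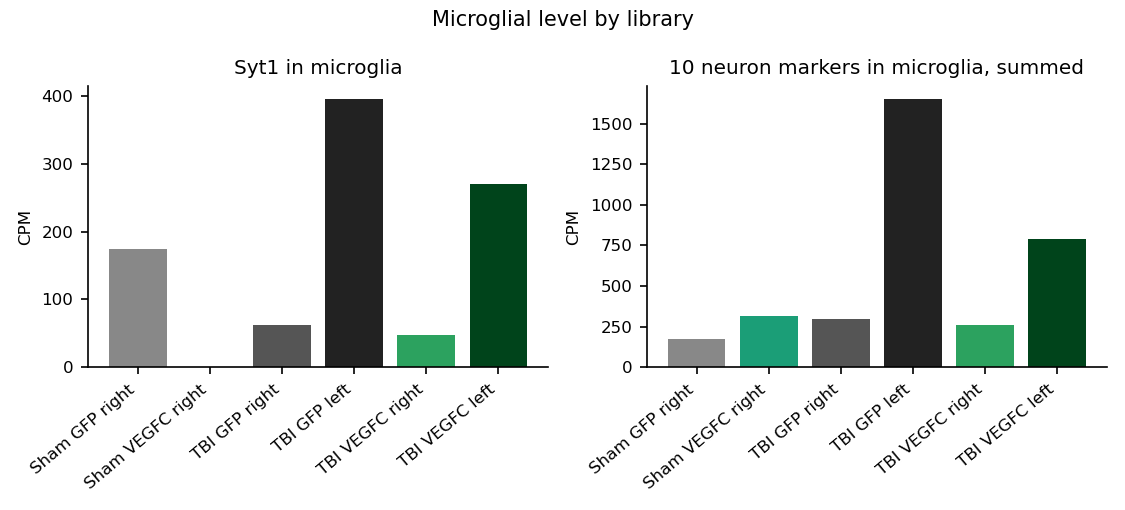
Bars give CPM in microglia by library on a linear axis from 0, for Syt1 on the left and for the sum of 10 neuron markers on the right. Syt1 is highest in the TBI GFP left library (395 CPM) and absent from the sham VEGFC library (0), and the marker sum is also highest in the TBI GFP left library (1650.2 CPM).

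The last question was whether the VEGFC difference after TBI differed from that after sham, tested as an interaction in which the 2 sides of TBI mice served as replicates. Only 1 sham library existed per vector, so the sham difference has no replicate of its own. Nothing says whether the 2 sides came from the same mice, and they differ in distance from the impact. The spread between the sides thus need not measure that between mice. Here 6 of 637 pairs passed, all with the VEGFC difference higher after TBI, beside 0.228% of all genes. By edgeR 64 pairs (10.0%, against 7.38% of all genes) had an unadjusted p under 0.05. The same 6 were called by limma-voom and none by DESeq2, which gave Sv2b and Unc13b no adjusted p and had 13 at an unadjusted p under 0.05. The 6 pairs came from mixed neurons, CA1-like and dentate granule-like nuclei, where 1.19%, 0.393% and 0.302% of all genes passed. Without the TBI GFP left library none of the 6 passed, with adjusted p of 0.0538 to 0.246. In all 6 the GFP library was the higher of the pair in sham and the VEGFC library the higher on both sides after TBI. The 4 tests share libraries, and this comparison uses the same sham and TBI libraries as the vector test.

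Unc13a in CA1-like nuclei (chromosome 8, 71624417.0 to 71671757.0 in GRCm38, minus strand), the priming factor, had 131, 97.1, 124, 112, 153 and 145 CPM. In sham the VEGFC library was the lower and after TBI the higher on both sides, an interaction of 0.82 on the log2 scale (SE 0.18, adjusted p 0.00417). It passed under 11 of 13 alternative settings, the exceptions being DESeq2 and the fit without TBI GFP left. Syn2 in CA1-like nuclei (chromosome 6, 115134902.0 to 115282006.0, plus strand), a synapsin, had 437, 365, 368, 361, 405 and 426 CPM, an interaction of 0.49 (SE 0.13, adjusted p 0.0379). Its highest library was sham GFP, and it passed under 6 of 13 alternatives. The choroid plexus markers summed to 203, 307, 291, 217, 162 and 167 CPM in CA1-like nuclei, higher in the 3 libraries where both genes were lowest. Their part in the result was not tested.

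Cplx2 in dentate granule-like nuclei (chromosome 13, 54371349.0 to 54383917.0, plus strand) had 135, 106, 109, 109.8, 128 and 137 CPM, an interaction of 0.66 (SE 0.16, adjusted p 0.0244). The sham GFP library and both VEGFC libraries after TBI were high, and the other 3 lay between 106 and 109.8 CPM. It passed under 5 of 13 alternatives. The choroid markers summed to 259, 516, 387, 248, 175 and 226 CPM here, highest in sham VEGFC and TBI GFP right, and their part was not tested.

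Sv2b, Unc13b and Unc13c were the 3 calls in mixed neurons, a small class of 46 to 259 nuclei per library that made up 0.929% to 4.77% of nuclei. Sv2b (chromosome 7, 75114894.0 to 75309262.0, minus strand) had 159.9, 42.1, 64.8, 73.9, 153 and 131 CPM, an interaction of 3.02 (SE 0.44, adjusted p 3.19e-05). The sham GFP library and both VEGFC libraries after TBI formed a high group, without overlap of the other 3 libraries. The sham VEGFC and TBI GFP right values of Sv2b came from 13 UMIs each. Unc13b (chromosome 4, 43058953.0 to 43264871.0, plus strand) had 128, 58.3, 105, 99.8, 131 and 136 CPM, an interaction of 1.65 (SE 0.42, adjusted p 0.0303). Its sham VEGFC value came from 18 UMIs. Unc13c (chromosome 9, 73479422.0 to 73968966.0, minus strand) had 389.7, 229.8, 165, 269.5, 348 and 301 CPM, an interaction of 1.33 (SE 0.33, adjusted p 0.0221).

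The make-up of the mixed class moved with these 3 genes. The excitatory markers summed to 475, 320.4, 314, 340.4, 498 and 429 CPM and the CA3 markers to 556, 359, 319, 451, 536 and 564 CPM, high in the libraries in which Sv2b was high. The inhibitory markers summed to 298, 453, 549, 426, 351 and 309.7 CPM and the astrocyte markers to 369.7, 521, 758, 498, 321 and 325 CPM, low in the same libraries. Mixed nuclei also had a median doublet score of 0.069 against 0.0456 in excitatory neurons. The part of class make-up in these 3 results was not tested. At a doublet score of at most 0.05, 2 to 54 mixed nuclei per library were left, and none of the 3 passed.

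**Figure D5:**
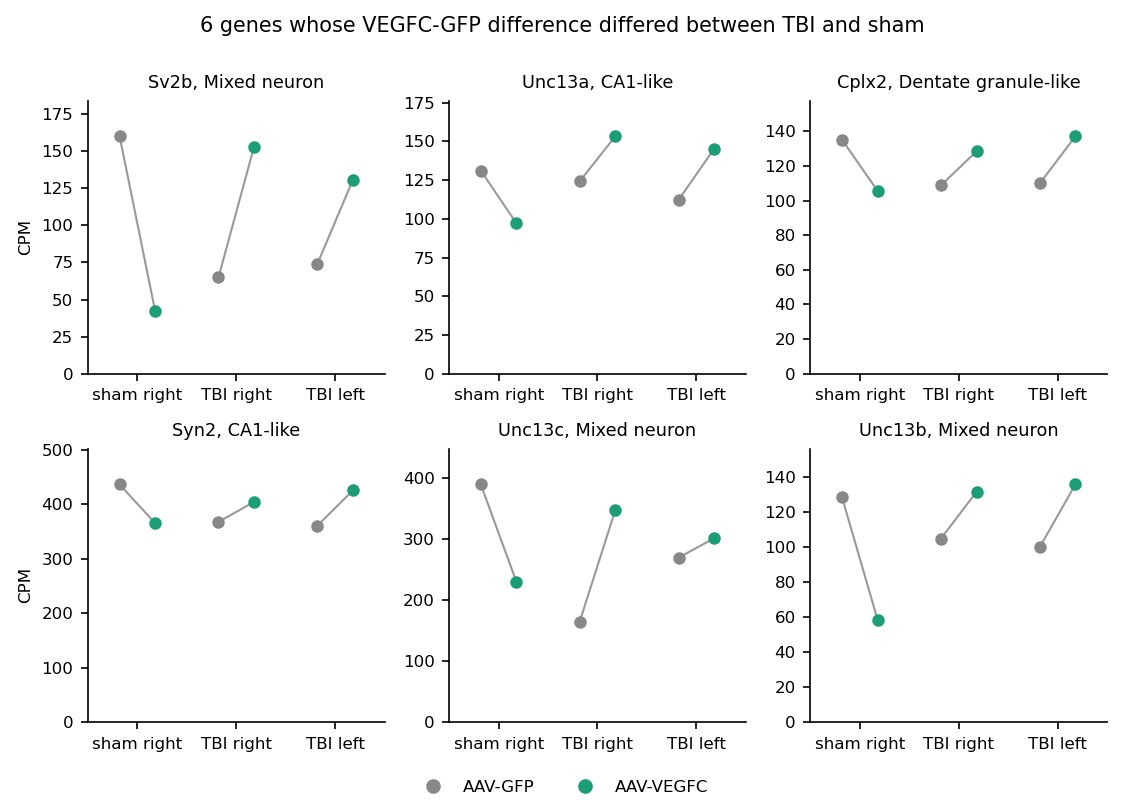
Each panel shows 1 of the 6 genes in the class or subset where it passed, with CPM on a linear axis from 0 and GFP and VEGFC libraries joined within sham right, TBI right and TBI left. Lines fall from GFP to VEGFC in sham and rise on both sides after TBI, with the largest ratios for Sv2b in mixed neurons (159.9 to 42.1 CPM in sham, 64.8 to 153 CPM in TBI right).

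On the side of a lower VEGFC difference after TBI, Stx19 in dentate granule-like nuclei was nearest (log2 -2.13, adjusted p 0.0944, and 0.0393 or 0.0363 without TBI GFP left or TBI VEGFC right), with 3.68, 12.6, 12.3, 8.05, 9.29 and 5.70 CPM. Rab3b in mixed neurons (-2.16, adjusted p 0.179), Vamp2 in oligodendrocytes (-1.41) and Stx3 in excitatory neurons (-0.40) followed, none past the threshold. Of the 62 other presynaptic genes, 2 pairs passed in this comparison, Doc2b in mixed neurons (log2 3.19, adjusted p 0.0385), a calcium sensor of spontaneous release, and Cacna1a in CA3-like nuclei (log2 0.72, adjusted p 0.00069), the P/Q-type calcium channel of the active zone, and none in the other 3 comparisons. Doc2b had 35.0, 19.4, 19.9, 3.99, 34.6 and 30.1 CPM from 82 UMIs, as few as 4 in a library. It was high in the same libraries as Sv2b and as the excitatory markers of the mixed class, whose part was not tested. Cacna1a had 1338, 1113, 1003, 1052, 1418 and 1281 CPM. The choroid plexus markers summed to 152, 295, 236, 170, 103 and 168 CPM in CA3-like nuclei. They were highest in the 3 libraries where Cacna1a was lowest, though 170 and 168 CPM are close, and their part was not tested. Neither Doc2b nor Cacna1a is reported here under the alternative settings.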

How the data were processed

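Nuclei were isolated from hippocampus and sequenced with 10x 3' v3.1 chemistry, per the labels' protocols. The submitters' processing notes name Scanpy, the mm10 build and Cell Ranger 7.0.1. The use of intronic reads and of strand in counting: not given in the sources used here. Values in the deposited matrix are unnormalized UMI counts, 1 row a nucleus, and the authors' deposited metadata list for each nucleus its library, class, cluster and total count, the percent of mitochondrial UMIs and a doublet score. Mitochondrial UMIs stayed under 1%, doublet scores reached 0.099 and UMI totals exceeded 1000 in the nuclei as deposited. All were kept, and no doublet caller was run.

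Counts were summed per library and class, or per subset of clusters. The edgeR 4.0.16 quasi-likelihood test (R 4.3.3) used filterByExpr, TMM and an additive model of vector and of context, which was sham right, TBI right or TBI left, with 2 residual degrees of freedom. The interaction model took injury, vector and their product. Benjamini-Hochberg adjustment ran over all genes tested in a class and comparison, with a threshold of 0.05. DESeq2 1.42.0 and limma-voom (limma 3.58.1) were alternatives, beside RLE factors, library totals, no count filter, nuclei with at least 2000 UMIs, doublet scores up to 0.05, leaving out each library, and other folds and filters for contrasts. One more, without the 25% of non-neuronal nuclei highest in 200 neuronal genes, was added after seeing the data. On simulated counts for VEGFC against GFP, edgeR recovered 92 of 100 genes changed by 1 on the log2 scale in excitatory neurons (16468 genes), 89 in astrocytes (12883 genes) and 84 in oligodendrocytes (8025 genes), and called 14, 10 and 3 unchanged genes. The changed genes were drawn only from those above a minimum mean count. Every gene had the trended dispersion, and no context difference was simulated. Recovery was thus not measured for genes of low count, for other classes or for the interaction.

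Gene locations come from GENCODE on GRCm38 and promoters from RefSeq. By the rule for named genes, text values are given for every member past the threshold, the 4 nearest in each direction per test, the members with the largest ratios per contrast (up to 6 in each direction), those highest in a non-neuronal class, and 28 core members. Of the core members, 2 are counted but not reported by name here. The members, lists and rule were chosen with earlier results of these data known.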

Additional observations from a re-analysis of the deposited data

Results flagged for a closer look

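In 6 pairs of a gene and a class or subset, the difference between VEGFC and GFP libraries itself differed between TBI and sham by the edgeR interaction test. On the log2 scale the interaction was 3.02 for Sv2b, 1.33 for Unc13c and 1.65 for Unc13b in mixed neurons, 0.82 for Unc13a and 0.49 for Syn2 in CA1-like nuclei, and 0.66 for Cplx2 in dentate granule-like nuclei. Each was positive, with GFP above VEGFC in the 1 sham pair and VEGFC above GFP in both TBI pairs. The sham difference rests on 1 library per vector in every case.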

How the results depend on the processing

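The tests rest on 6 libraries with 2 residual degrees of freedom, and depth limited them most in microglia and fibroblasts, whose totals were as low as 54357 and 45757 UMIs in a library. In the additive model a library left alone in its context is fitted exactly. The 2 fits without 1 sham library thus test VEGFC on the same TBI libraries. Likewise, the 2 fits without 1 left library compare the same right libraries. Members past the threshold for VEGFC against GFP, 0 in the report, numbered 2 without a count filter and 0 to 5 with 1 library left out. The 5 appeared without either sham library and were Sv2b in mixed neurons, Sv2c in dentate granule-like and in excitatory neurons, Syn2 in astrocytes and Unc13c in inhibitory neurons. For TBI right against sham right, also 0, the count was 1 without a filter and 0 to 2 with 1 library left out (Sv2b in mixed neurons and Unc13a in CA1-like nuclei without sham GFP, Rab3b and Unc13c in inhibitory neurons without either left library). For TBI left against TBI right, 1 in the report, it was 3 without a filter and 0 with DESeq2, with at least 2000 UMIs, with doublet scores up to 0.05 and without the 25% of non-neuronal nuclei highest in neuronal RNA, and 0 to 3 with 1 library left out. At 2000 UMIs 1 to 9 microglia per library were left, and at the lower doublet score 0 to 94, so Syt1 could not be tested there. For the interaction, 6 in the report, it was 0 with DESeq2, 4 with library totals, 4 at 2000 UMIs, 4 at the lower doublet score, of which 1 was shared with the 6, and 3 to 8 with 1 TBI library left out, 3 of them without TBI VEGFC left. Without TBI GFP left 6 were called, of which 0 were shared with the 6 in the report. Without either sham library the interaction could not be fitted. Across its alternatives the interaction of Sv2b ran from 2.87 to 7.62, of Unc13a from 0.74 to 0.91, of Cplx2 from 0.30 to 0.72, of Syn2 from 0.44 to 0.54, of Unc13c from 1.14 to 1.85 and of Unc13b from 1.53 to 8.55. Their highest adjusted p were 0.857, 1.00, 1.00, 1.00, 0.878 and 0.857. The cause of these changes was not tested. Unc13c was highest in inhibitory cluster 5, whose share of nuclei varied between libraries. The part of that share in the calls of Unc13c in inhibitory neurons was not tested.

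The counts of members called between neuron types moved with the factor required, which by construction admits more or fewer genes. Inhibitory against excitatory gave 11 at a factor of 2, 19 at 1.5 and 5 at 3. Dentate granule-like against CA1-like gave 13 at 2 and 7 at 3. CA3-like against CA1-like gave 6 at 2, 14 at 1.5 and 2 at 3. Interneuron against CA1-like gave 15 at 2 and 7 at 3. The 122 pairs at or above the excitatory level were 97 to 131 under the alternatives run. Of the values of named genes in contrasts, 1148 stayed within the spread between libraries, 31 moved further and 1 reversed, Stx4a in fibroblasts against excitatory neurons, whose log2 ratio of CPM + 1 was -0.46 at 2000 UMIs, where 3 to 15 fibroblasts per library were left. Of the tested values, 448 kept direction and side of the threshold, 33 lost the threshold, 10 gained it and 0 reversed, beside 3 for which DESeq2 gave no adjusted p. No pairing by replicate could be fitted because no replicate number is shared between groups. The pairs named in the report are the GFP and VEGFC libraries of 1 context, a term of the model.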

Other observations

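Among the other presynaptic genes, several differed between principal cell types. Cadps2, a priming factor of dense-core vesicles, averaged 486 CPM in CA1-like nuclei, 88.6 CPM in dentate granule-like and 35.0 CPM in CA3-like nuclei, and its libraries did not overlap between CA1-like and either other subset. Its paralogue Cadps went the other way in CA3-like nuclei, with 1503 CPM against 677 CPM in CA1-like nuclei. Doc2b was at 45.1 CPM in CA1-like, 4.15 CPM in CA3-like and 2.81 CPM in interneuron nuclei. The active-zone scaffolds Erc2 and Ppfia2 were higher in dentate granule-like than in CA1-like nuclei, at 2112 against 861 CPM and 2131 against 753 CPM. In microglia the clathrin genes Clta (287 CPM) and Cltc (407 CPM) and the synaptogyrins Syngr1 (319.9 CPM) and Syngr2 (38.7 CPM) were higher than in excitatory neurons (67.1, 107, 38.4 and 1.21 CPM).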
